A study of Caenorhabditis elegans with 12 samples.

Results

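The genes described here encode the filament layer and the actin cortex under the apical membrane of the Caenorhabditis elegans intestine. They were chosen by name, 9 of the 20257 genes in the files. They comprise the 6 intestinal intermediate filament genes ifb-2, ifc-1, ifc-2, ifd-1, ifd-2 and ifp-1, the intestinal filament organizer ifo-1, the microvillar actin act-5, and erm-1, the worm ezrin, radixin and moesin protein. All 9 were measured in whole worms of 4 groups with 3 libraries each. The groups were wild type (N2) at day 1 of adulthood (WT D1) and at day 6 (WT D6), and the mutant glp-1(e2141) at the same ages (glp-1 D1 and glp-1 D6). All animals ate OP50 bacteria and were raised at 25 °C until D1. After D1 the D6 animals were moved to cooler plates, which the sample labels put at 20, 21 and 22 °C for replicates 1, 2 and 3 of either genotype and the treatment protocol at 20 °C, so age and a temperature shift cannot be told apart. The e2141 allele makes the Notch receptor GLP-1 temperature-sensitive, and without its signal the germline stem cells are lost, so that animals raised warm have almost no germline.

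The intestine of the worm is a tube of large epithelial cells whose apical side faces the gut lumen. Microvilli filled with actin cover that side, and their roots end in the terminal web, a mesh of actin and associated proteins. Below it lies the endotube, a dense sheath of intermediate filaments anchored at the apical junctions, which gives the lumen its shape and resists mechanical, osmotic and microbial stress. Cytoplasmic intermediate filaments of the worm are thought to assemble from different partner chains, and IFB-2 is the common partner in the intestine. IFO-1 gathers the filaments at the apical side, and ERM-1 links the membrane to the actin cortex.

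On the WBcel235 annotation, ifb-2 (WBGene00002054) lies on chromosome II from 5750188 to 5754140, plus strand, 11.5 kb from ifb-1, the common partner chain of the epidermal filaments. The gene ifc-1 (WBGene00002055) lies on chromosome V from 2881393 to 2883753, plus strand. The X chromosome carries ifc-2 (WBGene00002056, 642156 to 654904), ifd-2 (WBGene00002058, 813854 to 815929), ifd-1 (WBGene00002057, 8820703 to 8824448) and ifp-1 (WBGene00002067, 9675873 to 9680169), all on the minus strand. The remaining genes, on the minus strand too, are ifo-1 (WBGene00018350, chromosome IV, 7320734 to 7326663), act-5 (WBGene00000067, chromosome III, 13604412 to 13606066) and erm-1 (WBGene00001333, chromosome I, 5284026 to 5291604). No protein-coding gene overlaps any of the 9. The ifc-2 locus has 7 annotated transcripts of 1979 to 4317 bases, so its level per length depends on the length that was used.

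Values are FPKM (read fragments divided by gene length and by the library's total of mapped fragments), so each is a share of the RNA sequenced from a whole animal. A lower level can come from fewer cells of a type, from less RNA per cell or from more RNA of other tissues. These cannot be told apart in whole worms. Estimated depth was 16.6 to 19 megafragments per library, and 11100 to 12113 genes reached 1 FPKM. The glp-1 gene averaged 66.7 ± 2.16 FPKM in WT D1 and 97.9 ± 1.23 in WT D6, against 3.32 ± 0.0981 in glp-1 D1 and 6.09 ± 0.626 in glp-1 D6 (SD, n = 3). The summed FPKM of 12 germline marker genes was 2350 to 2471 in WT D1, 2709 to 2812 in WT D6, 12.2 to 13.2 in glp-1 D1 and 15 to 40.6 in glp-1 D6. The 16 intestinal marker genes, none of them among the 9, summed to 2034 to 3462 FPKM in WT D1, 2497 to 2846 in WT D6, 4016 to 5445 in glp-1 D1 and 6948 to 7768 in glp-1 D6, and none of the 16 was at 0 in a whole group. The protease gene cpr-1 carried much of this sum, and without it the other 15 summed to 1685 to 2370 FPKM in WT D1, 1134 to 1331 in WT D6, 3612 to 4473 in glp-1 D1 and 2371 to 2704 in glp-1 D6, lower at D6 in both genotypes. Most of this smaller sum was asp-1 alone, with means of 1630, 982, 3227 and 1686 FPKM in the same order. Taken singly, 12 of the 16 markers fell and 2 rose with age in wild type, and 6 fell and 4 rose in glp-1. Separate cultures for the replicates are nowhere stated, so every p-value reflects library-to-library spread, which may be technical.

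The common filament partner ifb-2 stood at 57.6, 44.2 and 43 FPKM in the 3 WT D1 libraries and at 13.5, 13.5 and 13.4 in WT D6. In glp-1 D1 it stood at 133, 130 and 128 FPKM, and in glp-1 D6 at 71.7, 80 and 84. The 4 groups did not overlap, with glp-1 D1 highest and WT D6 lowest. The large filament gene ifc-2 had 57.4, 41.5 and 41.6 FPKM in WT D1, 19.7, 16.9 and 16.7 in WT D6, 140, 133 and 120 in glp-1 D1, and 118, 137 and 140 in glp-1 D6. Its mutant groups overlapped each other, and both lay above every wild-type library.

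The filament gene ifc-1 had the widest range of the 9 as a ratio of its highest to its lowest library. Its libraries held 23, 16.5 and 9.01 FPKM in WT D1 and 1.72, 1.74 and 1.81 in WT D6. In the mutant it went from 32.2, 34 and 30.5 FPKM at D1 to 0.81, 0.637 and 1.57 at D6, so that the highest D1 group became the lowest group at D6. The 3 glp-1 D6 values correspond to an estimated 20 to 44 fragments per library, and the WT D6 values to 51 to 58.

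The lower filament genes were ifd-2, ifd-1 and ifp-1. The gene ifd-2 had 9.89, 7.94 and 11.2 FPKM in WT D1, 5.59, 5.86 and 3.85 in WT D6, 20.9, 23.3 and 16.5 in glp-1 D1 and 17, 29.3 and 22.1 in glp-1 D6. The gene ifd-1 had 4.57, 5.01 and 4.16 FPKM in WT D1, 1.23, 0.716 and 1.28 in WT D6, 16.3, 16.3 and 14.2 in glp-1 D1 and 7.76, 8.5 and 9.27 in glp-1 D6. All mutant libraries lay above all wild-type libraries of these 2 genes, and the WT D6 values of ifd-1 rest on an estimated 26 to 47 fragments per library. The gene ifp-1 had 2, 1.78 and 1.03 FPKM in WT D1, 0.523, 0.453 and 0.276 in WT D6, 2.75, 2.87 and 3 in glp-1 D1 and 0.558, 0.798 and 1.1 in glp-1 D6. It was the lowest of the 9 by mean in every group, at an estimated 13 to 24 fragments per library in WT D6 and 26 to 47 in glp-1 D6, and its D1 and D6 libraries of one genotype did not overlap.

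The organizer ifo-1 stood at 6.44, 6.11 and 6.5 FPKM in WT D1 and at 3.76, 2.41 and 2.56 in WT D6. In the mutant it stood at 23, 22.9 and 21.2 FPKM at D1 and at 27.4, 35 and 31.9 at D6. Of the 9 genes it alone had all glp-1 D6 libraries above all glp-1 D1 libraries. The microvillar actin act-5 had 375, 341 and 319 FPKM in WT D1, 76.4, 64.7 and 75.5 in WT D6, 870, 821 and 837 in glp-1 D1 and 397, 446 and 536 in glp-1 D6. Its groups did not overlap, and the order was that of ifb-2. The linker erm-1 had 145, 144 and 151 FPKM in WT D1, 126, 128 and 127 in WT D6, 134, 134 and 123 in glp-1 D1 and 89.7, 105 and 98.8 in glp-1 D6. The WT D6 and glp-1 D1 libraries overlapped, and the group means stayed between 97.9 and 147 FPKM, the narrowest range of the 9 as a ratio.

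**Figure D1:**
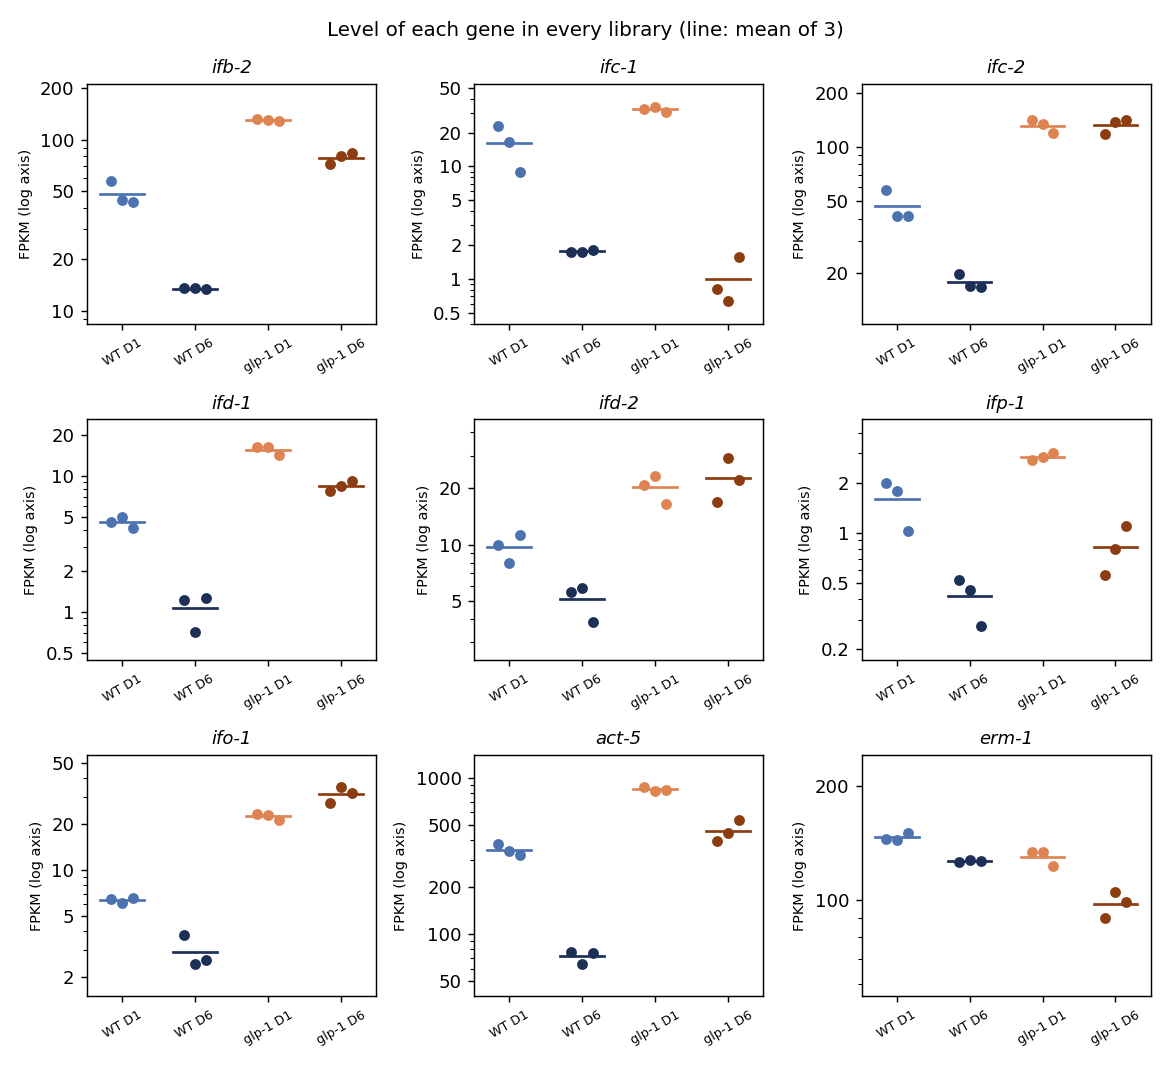
Each panel plots the FPKM of one gene, on a log axis, in each of the 12 libraries, with a line at the mean of the 3 libraries of a group. In the panel of ifo-1 the glp-1 D6 libraries are highest, in that of ifc-1 they are lowest, and the levels of erm-1 span only 89.7 to 151 FPKM.

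Ordered by mean level, act-5 led in WT D1, glp-1 D1 and glp-1 D6, while erm-1 led in WT D6 (127 ± 1.33 FPKM against 72.2 ± 6.53 for act-5; SD, n = 3). In WT D1 the order below act-5 was erm-1, ifb-2, ifc-2, ifc-1, ifd-2, ifo-1, ifd-1 and ifp-1, with overlapping libraries between the neighbours ifb-2 and ifc-2 and between ifc-1 and ifd-2. In WT D6 no neighbours overlapped, and ifc-2 (17.7 ± 1.68) stood above ifb-2 (13.5 ± 0.0509). In glp-1 D1, ifc-2 (131 ± 10), erm-1 (130 ± 6.33) and ifb-2 (130 ± 2.56) overlapped. In glp-1 D6, ifc-2 (132 ± 12.2) stood above erm-1 (97.9 ± 7.75) and ifb-2 (78.6 ± 6.24) without overlap, ifo-1 (31.5 ± 3.8) and ifd-2 (22.8 ± 6.17) overlapped, and so did ifc-1 and ifp-1 at the bottom. All 9 genes passed the filter on low values (at least 1 FPKM in at least 3 libraries). For ifp-1 this rested on the 6 D1 libraries and 1 glp-1 D6 library, with no WT D6 library at 1 FPKM.

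The first comparison asked how the genotypes differ at D1. All 6 filament genes, ifo-1 and act-5 were higher in glp-1 and erm-1 was lower, as shares of the sequenced RNA. None of the 8 was called higher once levels were scaled to intestinal or to muscle and neuron markers. Scaled to intestinal markers, 1176 of all 13614 genes tested were higher and 8631 lower, and scaled to muscle and neuron markers 1258 and 8225. As deposited, 41.3% of all genes tested were called higher and 48.1% lower, 89.4% in all. In 89.7% the 6 libraries separated by genotype without overlap, as they did for all 9 genes. The organizer ifo-1 was 3.52-fold higher by mean FPKM (log2 fold change 1.67, SE 0.13, adjusted p = 3.57e-08). Its log2 fold change and all others here are on the log2(FPKM + 1) scale, which understates changes of low genes. The common partner ifb-2 was 2.7-fold higher (1.42, SE 0.10, adjusted p = 8.69e-09) and ifc-2 2.8-fold (1.48, SE 0.12, adjusted p = 6.09e-08). For ifd-1 the fold was 3.41 (1.57, SE 0.13), for ifd-2 it was 2.09 (0.99, SE 0.20), for ifc-1 1.99 (1.04, SE 0.25) and for ifp-1 1.79 (0.59, SE 0.17), with adjusted p from 8.22e-08 to 0.00426. The actin act-5 was 2.44-fold higher (1.29, SE 0.10, adjusted p = 4.45e-08). For erm-1 the mean was 130 against 147 FPKM (-0.17, SE 0.06, adjusted p = 0.0203), a call that ended without WT D1 replicate 3 (adjusted p = 0.0627) or without glp-1 D1 replicate 3 (adjusted p = 0.0863). It turned to 0.22 (adjusted p = 0.00391) under median-of-ratios scaling.

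The median log2 fold change at D1 was 1.29 over the 9 genes and -0.15 over all genes tested. Of the 16 intestinal markers 15 were higher and 1 did not pass (median 1.34), and all 12 body wall muscle genes were higher (median 1.41). Of 14 tested neuronal genes 13 were higher and 1 did not pass (median 1.08); scaled to the intestinal markers, 0 muscle genes were higher and 1 lower, and likewise 0 and 1 of the neuronal genes. The gut kinase gene sma-5, a MAP kinase relative that the endotube needs, and bbln-1, which encodes the coiled-coil protein bublin at the endotube, were 1.34 (SE 0.17) and 1.49 (SE 0.10) higher on the log2 scale, and neither passed when scaled to the intestinal or to the muscle and neuron markers. At D6 both were higher as deposited. Scaled to intestinal (-0.79, adjusted p = 4.25e-05) or muscle and neuron markers (-0.60, adjusted p = 0.00137), bbln-1 was lower at D6, and sma-5 did not pass in either.

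At D6 the filament genes ifb-2, ifc-2, ifd-1 and ifd-2, the organizer ifo-1 and act-5 were higher in glp-1, erm-1 was lower, and ifc-1 and ifp-1 did not pass. Scaled to the intestinal markers, 5 of the 9 were higher and 3 lower, against 1540 and 8919 of all 13614 genes tested. As deposited, 44.4% of all genes tested were called higher and 45.4% lower, 89.8% in all, and 89.6% separated without overlap, as all 9 did here. The organizer ifo-1 stood 10.8-fold above wild type (3.06, SE 0.13, adjusted p = 4.39e-11). The filament genes ifd-1 (7.91-fold; 2.20, SE 0.13), ifc-2 (7.42-fold; 2.82, SE 0.12) and ifb-2 (5.82-fold; 2.45, SE 0.10) followed, with adjusted p from 2.2e-11 to 1.75e-09. The actin act-5 was 6.37-fold higher (2.65, SE 0.10, adjusted p = 1.77e-11) and ifd-2 4.47-fold (1.95, SE 0.20, adjusted p = 5.79e-07). The linker erm-1 was lower, with 97.9 against 127 FPKM (-0.38, SE 0.06, adjusted p = 6.87e-05), but stood at -0.01 (adjusted p = 0.888) under median-of-ratios scaling.

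The pair that did not pass at D6 had few fragments. The log2 fold change of ifc-1 was -0.49 (95% interval -1.04 to 0.06, adjusted p = 0.0863), and that of ifp-1 was 0.35 (-0.01 to 0.71, adjusted p = 0.0589). With a pseudocount of 0.1 FPKM both passed, ifc-1 lower at -0.84 (adjusted p = 0.0308) and ifp-1 higher at 0.82 (adjusted p = 0.0316). For ifc-1 the call also changed without glp-1 D6 replicate 3 (-0.68, adjusted p = 0.029) and, at the same -0.49, without WT D1 replicate 1 (adjusted p = 0.0398) or WT D1 replicate 3 (adjusted p = 0.0169). For ifp-1 it changed without glp-1 D6 replicate 1 (0.46, adjusted p = 0.03) and without WT D1 replicate 3 (0.35, adjusted p = 0.0288), and ifp-1 was also called higher under median-of-ratios scaling (0.48, adjusted p = 0.0134) and without trend and robust moderation (0.35, adjusted p = 0.0435).

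The next comparison asked what changed from D1 to D6 in wild type. All 9 genes fell as shares of the RNA, against 22.7% of all genes called lower, 35.1% called higher and 57.7% called in all. Scaled to muscle and neuron markers 5 of the 9 stayed lower, and scaled to intestinal markers 6, with erm-1 turned higher in both. Of all 13614 genes tested, 1158 were lower and 9885 higher in the first of these scalings, and 1426 and 9392 in the second. The D1 and D6 libraries of all 9 did not overlap, which held for 64.9% of all genes tested. The steepest decline was that of ifc-1, 9.2-fold by mean FPKM (log2 fold change -2.55, SE 0.25, adjusted p = 3.54e-06). Next came act-5, 4.78-fold (-2.24, SE 0.10, adjusted p = 3.63e-09), ifd-1, 4.26-fold (-1.44, SE 0.13), ifp-1, 3.84-fold (-0.86, SE 0.17), and ifb-2, 3.58-fold (-1.75, SE 0.10, adjusted p = 1.76e-08). The genes ifc-2 (2.64-fold; -1.34, SE 0.12), ifo-1 (2.18-fold; -0.93, SE 0.13) and ifd-2 (1.9-fold; -0.81, SE 0.20) declined less, and erm-1 least (1.16-fold; -0.21, SE 0.06, adjusted p = 0.0128). For ifp-1, 3 WT D1 and 0 WT D6 libraries reached 1 FPKM, so the filter on low values favoured a decline of this gene. The median was -1.34 over the 9 genes and 0.13 over all genes tested. Of the 16 intestinal markers 12 fell and 2 rose (median -0.90), with pho-1, a gut acid phosphatase, at -2.77 (SE 0.09) and the metallothionein mtl-2 at 1.72 (SE 0.08). All 12 body wall muscle genes fell (median -1.79), and 11 of them did so when scaled to the intestinal markers.

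In glp-1 the age comparison split the genes. Between D1 and D6 ifc-1, ifp-1, ifd-1, act-5, ifb-2 and erm-1 fell, ifo-1 rose, and ifc-2 and ifd-2 did not pass. Scaled to muscle and neuron markers 3 of the 9 fell, and scaled to intestinal markers 6, with ifo-1 higher in both. Of all 13614 genes tested, 861 were lower and 6257 higher in the first of these scalings, and 1410 and 4769 in the second. As deposited, 15.6% of all genes tested were called lower and 39.1% higher, 54.7% in all. The mean of ifc-1 declined 32-fold (-4.08, SE 0.25, adjusted p = 3.75e-08) and that of ifp-1 3.51-fold (-1.10, SE 0.17, adjusted p = 9.95e-05). In glp-1, 3 D1 libraries and 1 D6 library of ifp-1 reached 1 FPKM, so the filter favoured its decline here too. For ifd-1 and act-5 the decline was 1.83-fold each (-0.80, SE 0.13, and -0.88, SE 0.10), for ifb-2 it was 1.66-fold (-0.72, SE 0.10) and for erm-1 1.33-fold (-0.41, SE 0.06), with adjusted p from 1.05e-05 to 0.000207. The organizer ifo-1 rose 1.41-fold (0.47, SE 0.13, adjusted p = 0.00817). The values of ifc-2 (0.00, 95% interval -0.26 to 0.27, adjusted p = 0.996) and ifd-2 (0.15, -0.29 to 0.58, adjusted p = 0.574) did not pass, and their libraries overlapped between the ages, whereas those of the other 7 did not, as for 59.8% of all genes tested. The median was -0.72 over the 9 genes and 0.20 over all genes tested, and of the intestinal markers 6 fell and 4 rose (median -0.06).

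**Figure D2:**
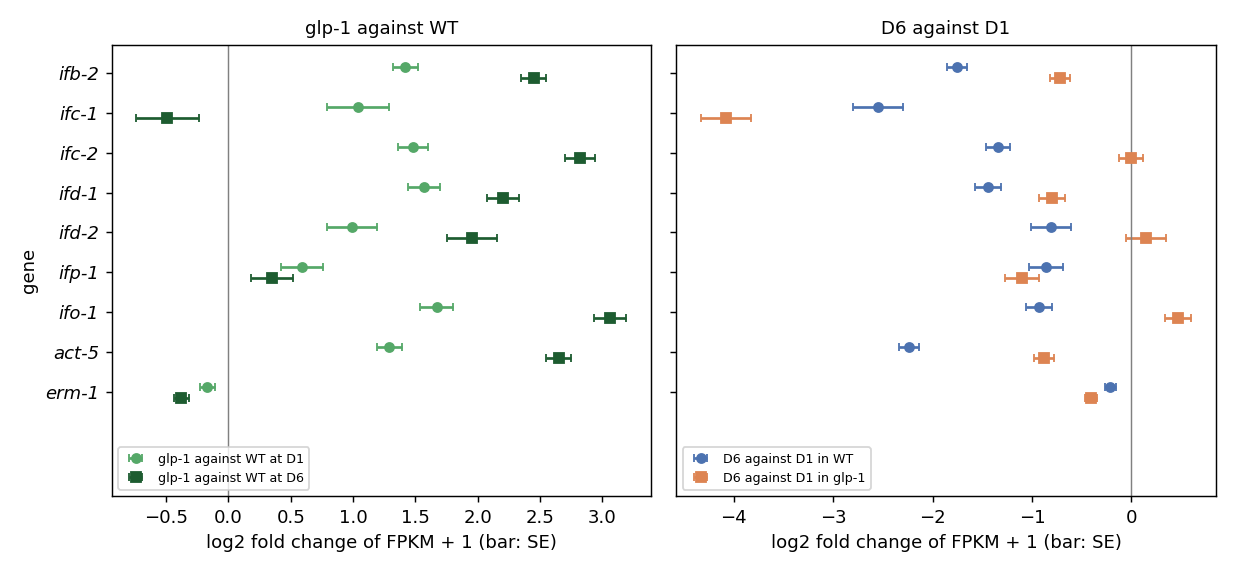
The left panel plots log2 fold changes between the genotypes (glp-1 over wild type) at D1 (circles) and D6 (squares), the right panel those of D6 against D1 in wild type (circles) and glp-1 (squares), with bars for the SE; values are from FPKM as deposited. At D6 the genotype difference of ifo-1 reaches 3.06 and that of ifc-1 lies at -0.49, and in the right panel ifc-1 lies farthest to the left in both genotypes (-2.55 and -4.08); scaled to intestinal markers, the left panel's D1 differences of the 8 genes other than erm-1 do not pass.

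Whether the change with age differed between genotypes was tested as an interaction, the log2 change of the mutant less that of wild type. For 6 genes the change was higher in glp-1 and for ifc-1 it was lower, while ifp-1 and erm-1 did not pass; among all genes tested 30.9% were called in the higher and 16.6% in the lower direction, 47.5% in all. The largest values were those of ifo-1 (1.39, SE 0.18, adjusted p = 6e-05), act-5 (1.36, SE 0.14, adjusted p = 1.14e-05) and ifc-2 (1.34, SE 0.17, adjusted p = 4.63e-05). These were followed by ifb-2 (1.03, SE 0.14, adjusted p = 6.61e-05), ifd-2 (0.96, SE 0.28, adjusted p = 0.0144) and ifd-1 (0.63, SE 0.19, adjusted p = 0.0144). This order holds on the log2(FPKM + 1) scale, which understates changes of low genes such as ifd-1. For ifc-1 the value was -1.53 (SE 0.36, adjusted p = 0.0039), so its decline was steeper in glp-1. Scaled to the intestinal markers, ifo-1 (0.86), ifc-2 (0.68), act-5 (0.67) and ifb-2 (0.39) stayed higher and ifc-1 (-1.44) lower, while ifd-1 (0.40, adjusted p = 0.182) and ifd-2 (0.36, adjusted p = 0.238) did not pass. Scaled to muscle and neuron markers, ifo-1 (0.93), ifc-2 (0.75) and act-5 (0.74) stayed higher and ifc-1 (-1.49) lower. There ifb-2 (0.45, adjusted p = 0.0998), ifd-1 (0.45, adjusted p = 0.186) and ifd-2 (0.42, adjusted p = 0.35) did not pass. Of all genes tested 1400 were higher and 6596 lower in the first scaling, and 1311 and 5735 in the second. As deposited, the value of ifp-1 was -0.24 (95% interval -0.75 to 0.27, adjusted p = 0.419). That of erm-1 was -0.20 (-0.40 to -0.01, adjusted p = 0.0732) as deposited, and -0.90 (adjusted p = 0.000116) when scaled to the intestinal markers. It also passed without glp-1 D1 replicate 3 (-0.25, adjusted p = 0.044) or glp-1 D6 replicate 2 (-0.26, adjusted p = 0.0275).

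Since the share of intestinal RNA in a whole animal may differ between groups, levels were also set against the geometric mean of the 16 intestinal markers in each library. In that scaling the D1 differences of ifb-2 (-0.04, 95% interval -0.25 to 0.17), ifc-2 (0.01, -0.20 to 0.23), act-5 (-0.19, -0.43 to 0.04) and ifd-1 (0.25, -0.12 to 0.62) did not pass, nor did those of ifc-1 (-0.37), ifd-2 (-0.39), ifp-1 (-0.39) and ifo-1 (0.30, 0.01 to 0.60, adjusted p = 0.0637). Only erm-1 was called, at -1.64 (SE 0.11, adjusted p = 7.87e-11). At D6 ifo-1 (1.16, SE 0.14, adjusted p = 4.18e-07), ifc-2 (0.69, SE 0.10), ifd-1 (0.64, SE 0.17), act-5 (0.48, SE 0.11) and ifb-2 (0.35, SE 0.10) were still higher in glp-1, with adjusted p up to 0.00445. In the same scaling ifc-1 (-1.81, SE 0.22, adjusted p = 1e-06), ifp-1 (-0.49, SE 0.19, adjusted p = 0.0288) and erm-1 (-2.54, SE 0.11) were lower at D6, and ifd-2 (-0.03, -0.41 to 0.34) did not pass. In wild type with age, ifc-1 (-2.07), act-5 (-1.45), ifd-1 (-1.06), ifb-2, ifp-1 (-0.68) and ifc-2 (-0.57) fell below the markers, and erm-1 rose by 0.59 relative to them (adjusted p = 8.55e-05). This scaling moved the median of all genes tested from -0.15 to -1.29 at D1 and from -0.03 to -1.57 at D6, and the markers themselves ranged from -2.77 to 1.72 with age in wild type, so it is a mean reference and not a constant one.

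**Figure D3:**
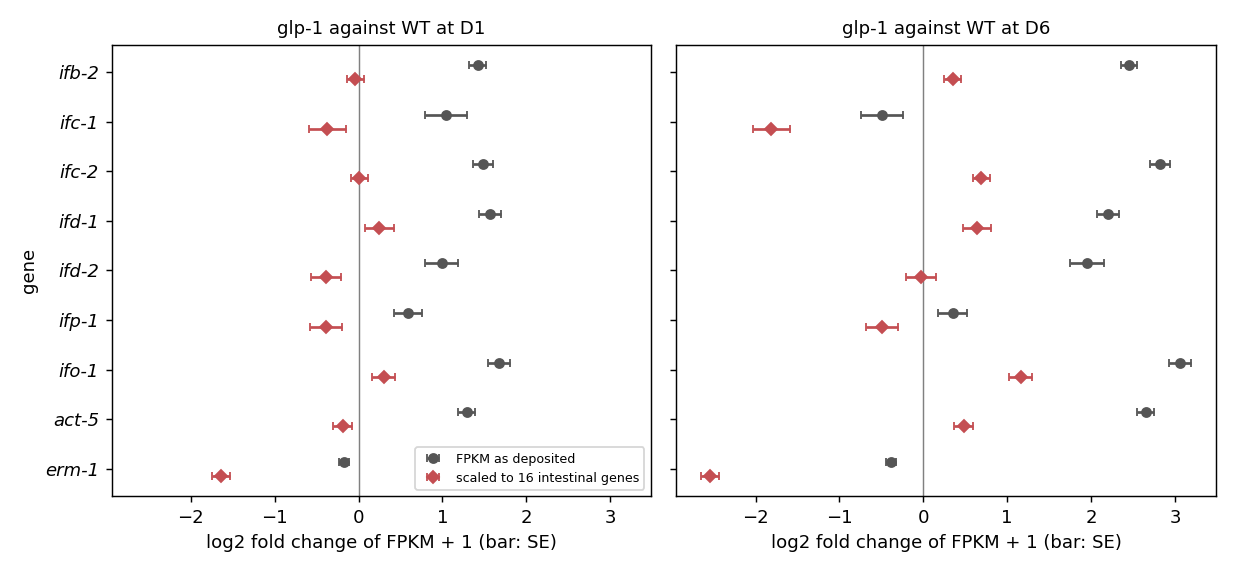
The difference of glp-1 from wild type (log2 fold change) at D1 (left) and D6 (right) appears for each gene from FPKM as deposited (circles) and after scaling to the 16 intestinal markers (diamonds), with bars for the SE. At D1 the scaled values of all genes but erm-1 lie between -0.39 and 0.30 and do not pass, and at D6 they spread from -2.54 for erm-1 to 1.16 for ifo-1.

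Ratios between these genes within a library do not depend on how libraries are scaled. The ratio of ifc-2 to ifb-2 was 0.967 ± 0.0283 in WT D1 and 1.01 ± 0.0581 in glp-1 D1, and 1.32 ± 0.122 in WT D6 and 1.67 ± 0.036 in glp-1 D6 (SD, n = 3). In both genotypes every D6 library lay above every D1 library, and the glp-1 D6 libraries lay above those of WT D6. The ratio of ifc-1 to ifb-2 went the other way, from 0.327 ± 0.103 in WT D1 to 0.13 ± 0.00425 in WT D6, and from 0.247 ± 0.0115 in glp-1 D1 to 0.0127 ± 0.00551 in glp-1 D6. The ratio of ifo-1 to ifb-2 was 0.134 ± 0.0201 in WT D1, 0.216 ± 0.0545 in WT D6, 0.172 ± 0.00508 in glp-1 D1 and 0.4 ± 0.0322 in glp-1 D6. Its D6 libraries lay above its D1 libraries in each genotype. For ifd-1 the ratio stayed between 0.0798 and 0.12 by group mean, and the age groups of wild type overlapped. That of ifd-2 was 0.204 ± 0.0487 in WT D1, 0.378 ± 0.0795 in WT D6, 0.155 ± 0.0251 in glp-1 D1 and 0.289 ± 0.0681 in glp-1 D6, higher in all D6 libraries of a genotype than in its D1 libraries. The ratio of ifp-1 was 0.0329 ± 0.00838 and 0.0309 ± 0.00938 in wild type at D1 and D6, which overlapped, and 0.0221 ± 0.0014 and 0.0103 ± 0.00269 in glp-1, which did not. For act-5 the ratio to ifb-2 was 7.21 ± 0.629 in WT D1, 5.35 ± 0.495 in WT D6, 6.47 ± 0.15 in glp-1 D1 and 5.83 ± 0.481 in glp-1 D6, with overlap between the ages in the mutant and none in wild type. No p-value is given for these ratios, and the part of tissues other than the intestine in them was not tested.

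**Figure D4:**
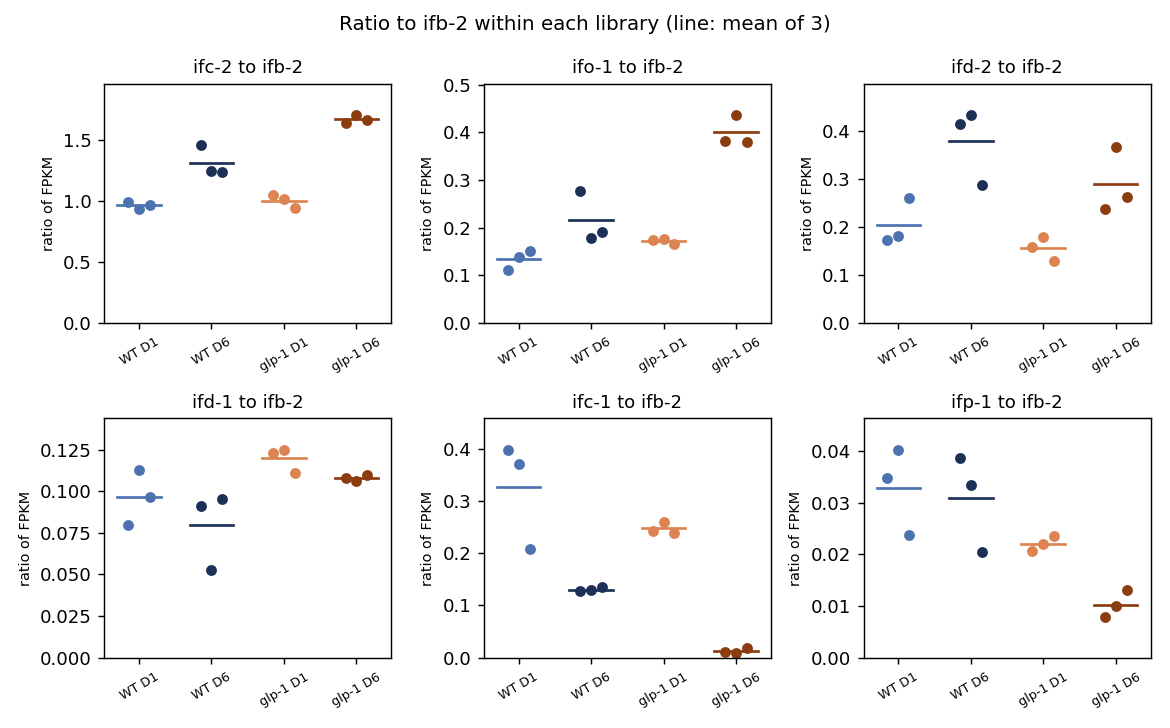
Each panel plots the FPKM of one gene divided by that of ifb-2 in each of the 12 libraries, with axes from 0 and a line at the mean of the 3 libraries of a group. The ratios of ifc-2 and ifo-1 are highest in glp-1 D6 (1.67 and 0.4 by mean) and that of ifc-1 is lowest there (0.0127).

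Summed over the 6 filament genes, the level was 127 ± 23.9 FPKM in WT D1, 39.6 ± 2.49 in WT D6, 332 ± 17.8 in glp-1 D1 and 243 ± 24.1 in glp-1 D6 (SD, n = 3). At D1 ifb-2 gave 38.1% ± 0.953 of this sum in wild type and 39.2% ± 1.45 in glp-1, which overlapped, and ifc-2 gave 36.8% ± 1.17 and 39.4% ± 1.04, which did not. At D6 the part of ifc-2 was 44.8% ± 1.73 in wild type and 54.1% ± 0.585 in glp-1. That of ifc-1 was 12.4% ± 3.65 in WT D1, 4.45% ± 0.401 in WT D6, 9.7% ± 0.326 in glp-1 D1 and 0.411% ± 0.183 in glp-1 D6. The partner chains other than ifb-2 together stood at 1.63 ± 0.0651 times ifb-2 in WT D1, 1.93 ± 0.177 in WT D6, 1.55 ± 0.0926 in glp-1 D1 and 2.09 ± 0.0999 in glp-1 D6. These sums are from whole worms, and the part of tissues other than the intestine in them was not tested.

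Of the actin genes, act-5 is used in microvilli and in the excretory canal, while act-1, act-2, act-3 and act-4 serve muscle and other cells. It made up 8.19% ± 0.604 of the summed FPKM of the 5 actins in WT D1, 2.52% ± 0.196 in WT D6, 15% ± 1.67 in glp-1 D1 and 18.6% ± 3.21 in glp-1 D6 (SD, n = 3). With age the share of act-5 was thus lower in wild type, without overlap, and its mutant groups overlapped. At D6 act-1 (-0.52, SE 0.10), act-2 (-2.76, SE 0.07) and act-3 (-0.49, SE 0.10) were lower in glp-1 while act-5 and act-4 (1.59, SE 0.10) were higher; under median-of-ratios scaling act-1 and act-3 did not pass, and act-4 turned lower when scaled to muscle and neuron (-0.40) or intestinal markers (-0.59). The interaction was 0.14 (SE 0.15, adjusted p = 0.441) for act-4 and -0.92 (SE 0.14) for act-1, and that of act-4 turned lower when scaled to muscle and neuron (-0.49, adjusted p = 0.0181) or intestinal markers (-0.55, adjusted p = 0.047). Actin genes are near-identical in sequence, and the sources used here do not say how fragments that match several of them were assigned, so the split among them is uncertain. Of 8 excretory canal genes 4 were higher and 2 lower in glp-1 at D1, and 6 higher and 1 lower at D6. Relative to the intestinal markers 0 were higher and 4 lower at D1, and 1 was higher and 6 lower at D6. Of all 13614 genes tested, 8631 were lower at D1 and 8919 at D6 in that scaling. The summed FPKM of the 8 canal genes was 134 to 155 in WT D1, 113 to 133 in WT D6, 180 to 199 in glp-1 D1 and 198 to 203 in glp-1 D6. The part of the canal in the levels of act-5 and of the filament genes was not tested.

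**Figure D5:**
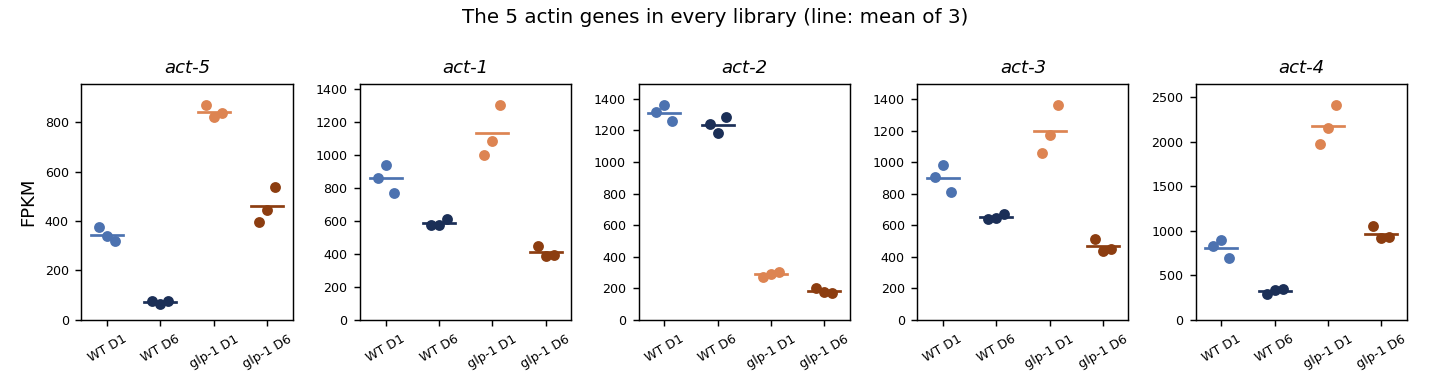
Each panel plots the FPKM of one actin gene in each of the 12 libraries, with axes from 0 and a line at the mean of the 3 libraries of a group. The libraries of act-5 in WT D6 lie at 64.7 to 76.4 FPKM, those of act-2 at 169 to 304 FPKM in the mutant and 1184 to 1361 in wild type.

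The ratio of erm-1 to act-5 was 0.428 ± 0.0422 in WT D1 and 1.77 ± 0.185 in WT D6, against 0.155 ± 0.00848 in glp-1 D1 and 0.215 ± 0.0273 in glp-1 D6 (SD, n = 3). No groups overlapped, and in WT D6 alone erm-1 exceeded act-5. ERM-1 is also made in other epithelia, in the germline and in embryos. All 12 germline genes were lower in glp-1 at both ages (medians -6.16 at D1 and -6.17 at D6). Of 10 tested embryonic genes 9 were lower at D1, and 8 were lower and 1 higher at D6. The summed FPKM of the 12 listed embryonic genes was 380 to 402 in WT D1, 478 to 516 in WT D6, 66.3 to 74.5 in glp-1 D1 and 85.1 to 94.9 in glp-1 D6, with 7 of them at 0 in all glp-1 D1 libraries, of which med-1 was at 0 in both wild-type groups too and end-1 in WT D6. The part of germline and embryos in the level of erm-1 was not tested.

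Partners of these genes at the brush border went in both directions. At D1, 4 of 16 tested brush border and apical actin genes were higher in glp-1 and 11 lower (median -0.75), and at D6, 5 were higher and 11 lower (median -0.65). Scaled to the intestinal markers, 0 were higher and 15 lower at D1 and 1 higher and 14 lower at D6. In that scaling 1176 of all 13614 genes tested were higher and 8631 lower at D1, and 1540 and 8919 at D6. The higher ones were led by nrfl-1, which encodes a scaffold that binds ERM-1, at 1.36 (SE 0.09) at D1 and 2.49 (SE 0.09) at D6, and by eps-8, whose product caps and bundles microvillar actin, at 1.03 (SE 0.08) and 2.14 (SE 0.08); scaled to intestinal markers, eps-8 was lower at D1 (-0.42) and neither nrfl-1 at D1 (-0.09) nor eps-8 at D6 (0.02) passed. The lower ones were led by wve-1 (-2.53, SE 0.09, and -2.68, SE 0.09) and wsp-1 (-2.02, SE 0.11, and -2.38, SE 0.11), which activate branched actin growth in many tissues. The plastin gene plst-1, for an actin bundler, was lower too (-1.70, SE 0.07, and -1.51, SE 0.07). All these are whole-worm levels, and the part of germline and embryos in those of the brush border genes was not tested.

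With age in wild type nrfl-1 (-1.21, SE 0.09) and eps-8 (-0.81, SE 0.08) fell, though scaled to the intestinal markers eps-8 stood at -0.05 (adjusted p = 0.748), and 9 of the 16 brush border genes rose, led by viln-1 (0.58, SE 0.07) and wsp-1 (0.58, SE 0.11). In glp-1 12 of the 16 rose, or 7 under median-of-ratios scaling, and none fell, led by sma-1, for the apical heavy spectrin (1.20, SE 0.10, from 23.8 ± 2.37 to 56.3 ± 5.7 FPKM), and viln-1 (0.88, SE 0.07). In the interaction nrfl-1 (1.12, SE 0.13), eps-8 (1.11, SE 0.12) and sma-1 (1.04, SE 0.15) were higher in glp-1; scaled to the intestinal markers nrfl-1 (0.47) and eps-8 (0.44) stayed so and sma-1 did not pass (0.32, adjusted p = 0.186), and scaled to muscle and neuron markers none of the 3 passed (0.54, 0.51 and 0.38 in that order). Over the 16 genes, 5 had a higher and 0 a lower interaction as deposited, 2 and 12 scaled to the intestinal markers, and 0 and 8 scaled to muscle and neuron markers. Over all 13614 genes tested the counts were 4205 and 2263, 1400 and 6596, and 1311 and 5735 in that order. The filament regulators sma-5 and bbln-1 did not pass with age in either genotype, with values of -0.07 (SE 0.17) and 0.02 (SE 0.10) in wild type and 0.39 (SE 0.17) and -0.11 (SE 0.10) in glp-1, whereas relative to the intestinal markers both were higher in WT D6 than in WT D1, and sma-5 was higher in glp-1 D6 than in glp-1 D1 (0.48, adjusted p = 0.0122). The level of bbln-1 was 40.3 ± 4.81 FPKM in WT D1, 40.7 ± 2.27 in WT D6, 115 ± 7.77 in glp-1 D1 and 107 ± 12.2 in glp-1 D6. Its interaction did not pass as deposited. It was lower when scaled to the intestinal (-0.82, adjusted p = 0.00166) or to the muscle and neuron markers (-0.75, adjusted p = 0.00727), while that of sma-5 passed in neither.

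Genes of the junctions and the lumen went in both directions too. Of 15 apical junction and polarity genes 3 were higher and 11 lower in glp-1 at both ages (medians -0.86 and -1.24), from the cadherin gene hmr-1 (-2.71, SE 0.07, at D1) to the claudin-like vab-9 (1.32, SE 0.12, at D1, and 2.40, SE 0.12, at D6). With age 11 of them rose in wild type and 9 in the mutant, and none fell in either, except that 2 fell in glp-1 under median-of-ratios scaling. Of 12 genes for lumen lipids and apical traffic 4 were higher and 8 lower at D1, and 5 higher and 6 lower at D6, with acs-1, a fatty acid activating enzyme, at 2.43 (SE 0.08) and 2.89 (SE 0.08), and unc-101, an AP-1 adaptor subunit, at -2.59 (SE 0.10) and -3.02 (SE 0.10). Relative to the intestinal markers, 14 of the 15 junction genes were lower at either age and none was higher, and 11 of the 12 lumen genes were lower and 1 higher. In this scaling most genes were lower, 8631 of all 13614 tested at D1 and 8919 at D6, with 1176 and 1540 higher. These are levels in whole worms, so they do not describe the intestine alone. The part of germline and embryos in them was not tested.

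Among the other filament genes (ifa-1, mua-6, ifa-3, ifa-4, ifb-1 and the lamin lmn-1), 3 of 6 were higher and 3 lower in glp-1 at D1, and 4 were higher and 1 lower at D6. Relative to the intestinal markers the counts were 0 and 3 at D1 and 1 and 3 at D6. Over all 13614 genes tested they were 1176 and 8631 at D1 and 1540 and 8919 at D6 in that scaling. With age in wild type 5 of the 6 fell and 1 rose, and in glp-1 3 fell and 1 rose (medians -1.35 and -0.18).

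By distance between centred log2 profiles over the 12 libraries, the closest pair among the 9 genes was ifb-2 and ifd-1 (distance 0.641, Pearson r 0.989), followed by ifb-2 and act-5 (0.703, r 0.992) and ifc-2 and ifo-1 (0.949, r 0.976). Outside the 9 genes, the profiles nearest to ifb-2 were those of F52H2.6 (distance 0.45, r 0.996), lbp-6 (0.492, r 0.993) and dct-16 (0.529, r 0.993). The nearest to act-5 were lbp-6 (0.529, r 0.996), dct-16 (0.542, r 0.994) and elo-5 (0.587, r 0.995), so both lists hold lbp-6 and dct-16. Mean levels of lbp-6 were 363 FPKM in WT D1, 92.4 in WT D6, 856 in glp-1 D1 and 533 in glp-1 D6. The nearest to erm-1 were trap-4 (0.26, r 0.949), aco-2 (0.336, r 0.899) and dpm-1 (0.351, r 0.892). These correlations describe 12 libraries in 4 groups and carry no p-value.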

How the data were processed

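RNA of whole worms was extracted with TRIzol and made into libraries with an NEBNext Ultra kit, per the labels' protocols. Per the file headers, the authors deposited 1 FPKM value per gene and library. HISAT2 2.0.4, DESeq2 1.6.3 and build WBcel235 are named in the submitters' processing notes, with no role given; which program gave FPKM, and whether strand was used, is not stated in the sources used here. Files list 20257 genes. Members and gene lists were chosen with earlier results of these data known. All 9 members are named; from each list the extremes among called genes and stated partners are named. Of 151 list entries 150 were found, 2 of them under a sequence name.

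limma 3.58.1 in R 4.3.3 (trend, robust) was fitted to log2(FPKM + 1) of the 13614 genes that reached 1 FPKM in 3 or more libraries, 1 mean per group, 8 residual degrees of freedom. Calls are two-sided at Benjamini-Hochberg adjusted p under 0.05 over all genes tested. The script was tested on simulated data. Depth was estimated from the steps between low values of genes with 1 transcript; counting intervals were not computed. Alternatives were another pseudocount, no filter, 3 scalings, 2 other fits, a replicate block and leaving out each library.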

Additional observations from a re-analysis of the deposited data

Results flagged for a closer look

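For 7 of the 9 genes the change from D1 to D6 differed between the genotypes by the interaction test, as the log2 change of the mutant less that of wild type. The value was 1.39 for ifo-1, 1.36 for act-5, 1.34 for ifc-2, 1.03 for ifb-2, 0.96 for ifd-2 and 0.63 for ifd-1. For ifc-1 it was -1.53. These values are from FPKM as deposited, and of all genes tested 47.5% passed the same test. Scaled to muscle and neuron markers, ifb-2 (0.45, adjusted p = 0.0998), ifd-1 (0.45, adjusted p = 0.186) and ifd-2 (0.42, adjusted p = 0.35) did not pass. Scaled to the intestinal markers, ifd-1 (0.40, adjusted p = 0.182) and ifd-2 (0.36, adjusted p = 0.238) did not. Groups of 3 libraries are too small for a test of single outlying libraries.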

How the results depend on the processing

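Calls depended most on scaling. Of the 9 genes, median-of-ratios scaling left 0 lower in the mutant at D1 and 0 at D6, added ifp-1 as higher at D6 (0.48), and 2 had a lower interaction. Scaled to muscle and neuron lists, 0 were higher at D1, 2 were lower at D6, 1 was higher and 5 were lower with age in wild type, 3 were lower with age in glp-1, and 3 had a higher and 2 a lower interaction. Scaled to the intestine list, 0 were higher at D1, 3 were lower at D6, 1 was higher with age in wild type and 2 had a lower interaction. With a pseudocount of 0.1, or in the fit of the compared groups alone, 2 were lower at D6, and without trend and robust moderation 0 were lower at D1 and ifp-1 was higher at D6 (0.35). Of all genes called, those higher in glp-1 were 46.2% at D1 and 49.5% at D6 as deposited, 51% and 52.9% under median of ratios, 13.3% and 18.2% scaled to muscle and neurons, and 12% and 14.7% scaled to intestine. With age the higher share was 60.7%, 52%, 89.5% and 86.8% in that order for wild type, and for the mutant 71.4%, 63.1%, 87.9% and 77.2%, and in the interaction 65%, 64.3%, 18.6% and 17.5%.

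Single genes turned direction as follows. Under median of ratios erm-1 at D1 was 0.22 and ifc-2 with age in glp-1 -0.11. Scaled to muscle and neurons, the D1 values were -0.25 for ifc-1, -0.27 for ifd-2, -0.29 for ifp-1 and -0.07 for act-5, ifp-1 at D6 was -0.43, and with age in wild type ifd-2 was 0.07 and erm-1 0.80. Scaled to intestine, the D1 values were -0.04 for ifb-2, -0.37 for ifc-1, -0.39 for ifd-2, -0.39 for ifp-1 and -0.19 for act-5, at D6 ifd-2 was -0.03 and ifp-1 -0.49, and erm-1 with age in wild type was 0.59. With age in glp-1, ifc-2 ranged from -0.06 to 0.08 when libraries were left out, with -0.03 without glp-1 D6 replicate 2 and -0.04 without glp-1 D6 replicate 3, and ifd-2 from -0.04 to 0.33; neither passed in any of these. The cause was not tested.

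Leaving out each of the 12 libraries gave 8 higher and 0 to 1 lower at D1, 6 to 7 higher and 1 to 2 lower at D6, 9 lower with age in wild type, 1 higher and 6 lower with age in glp-1, and 6 higher and 1 to 2 lower in the interaction. Without a filter, no call of the 9 genes changed. Same-numbered libraries showed no common deviation (r from -0.14 to 0.15 over 12 pairs, 1 above 0.1). With 3 libraries per group this cannot exclude a pairing. The labels also give same-numbered D6 libraries of the 2 genotypes the same temperature. With the replicate block every count over the 9 genes was the same. These were 8 higher and 1 lower at D1, and 6 and 1 at D6. With age 9 were lower in wild type, and 1 was higher and 6 lower in the mutant. The interaction gave 6 higher and 1 lower. Depth limits ifp-1 and ifc-1 at D6 and ifd-1 in WT D6, with an estimated 13 to 58 fragments per library.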
